A study of Mus musculus with 12 samples.

Results

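Malat1, Neat1 and Kcnq1ot1 are 3 long noncoding RNAs that stay in the nucleus, and their counts were followed through 12 libraries of a YTHDF2 RNA immunoprecipitation followed by sequencing (RIP-seq). The 3 genes were found by their GENCODE mouse symbols among the 54446 gene identifiers of the count files. They were chosen by their share of the counts and their ratio of YTHDF2 IP to Input in unirradiated and in irradiated samples, so these values are given as a description, without a p-value. The cells were CD11b+ myeloid cells sorted from MC38 colon tumors that grew in wild-type (Ythdf2 f/f) mice of both sexes, aged 8 to 10 weeks. Mice were left unirradiated (Ctrl) or received 1 local dose of 20 Gy (IR), and tumors were taken 3 days after irradiation. Each library came from 5 pooled mice, and 3 pools were sequenced for each of the 4 groups, named Ctrl Input, IR Input, Ctrl IP and IR IP. No group lacked YTHDF2, and no IP with a control antibody was analysed here. The pools are called technical replicates in the study's methods, so every p-value below measures the spread between these pools. In such bulk samples, fewer cells of a type and less RNA per cell cannot be told apart.

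YTHDF2 is a cytosolic protein that reads N6-methyladenosine (m6A) on RNA and brings its targets to the deadenylation and decay machinery. Malat1 gathers at nuclear speckles, domains rich in splicing factors, and its 3' end is made by RNase P cleavage and capped by an RNA triple helix in place of a poly(A) tail. Neat1 is the scaffold of paraspeckles. It is made as a short polyadenylated transcript and as a long transcript whose 3' end is formed in the same manner as that of Malat1, and only the long transcript builds the paraspeckle. Kcnq1ot1 is read from the paternal chromosome, antisense to Kcnq1, and silences the Kcnq1 imprinted domain in cis. GEO's labels describe selection of polyadenylated RNA, whereas the study's methods describe a total RNA kit. Which of them applied to these libraries was not tested.

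In the mm10 build Malat1 (ENSMUSG00000092341) lies at chr19:5795690-5802672 and Neat1 (ENSMUSG00000092274.3) at chr19:5824708-5845478, both on the minus strand and next to each other. Kcnq1ot1 (ENSMUSG00000101609.2) lies at chr7:143203458-143296549 on the minus strand, within Kcnq1. The longest transcript of each is a lone exon, of 6983 bases for Malat1, 20771 bases for Neat1 and 93092 bases for Kcnq1ot1. Of the 2430 lncRNA genes tested in all 12 libraries, whose longest transcripts had a median of 1618 bases, 26 had a longer one than Malat1, 4 than Neat1 and 1 than Kcnq1ot1. A count falls on the gene as a whole, so the short and the long Neat1 transcript could not be separated.

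The 3' ends are shown because those of mature Malat1 and long Neat1 are formed without the usual polyadenylation, although the annotated end of Malat1 holds the poly(A) signal too. The last 60 bases of the annotated transcripts (GENCODE M21, mm10, minus strand, written 5' to 3' as DNA letters) are given with the poly(A) signal AATAAA in capitals, and the Malat1 A-rich tract, 110 bases that end in its run of 12 A in capitals, stands with them.
Malat1 A-rich tract, chr19:5795988-5796097: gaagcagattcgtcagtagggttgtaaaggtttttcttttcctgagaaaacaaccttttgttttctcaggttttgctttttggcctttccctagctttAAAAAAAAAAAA
Malat1 annotated end, chr19:5795690-5795749: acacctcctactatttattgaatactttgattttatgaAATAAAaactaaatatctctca
Long Neat1 transcript end, chr19:5824708-5824767: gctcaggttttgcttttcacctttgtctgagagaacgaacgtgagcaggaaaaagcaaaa
Short Neat1 transcript end, chr19:5842307-5842366: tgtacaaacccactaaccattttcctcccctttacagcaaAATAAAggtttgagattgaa
Kcnq1ot1 end, chr7:143203458-143203517: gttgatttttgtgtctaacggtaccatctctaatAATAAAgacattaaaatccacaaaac
The long Neat1 transcript held no AATAAA in this window. The short Neat1 transcript, Kcnq1ot1 and the annotated end of Malat1, which runs past the A-rich tract, each held one. On the transcript strand, 27.2% of all 141515 GENCODE transcripts of at least 60 bases had the motif in their last 60 bases. The tract of 12 A was the only run of that length in Malat1. Kcnq1ot1 had 8 runs of 12 A or more, the longest of 41 bases, and Neat1 had none, its longest being 7 bases. Such a run was found in 11.7% of the 2430 lncRNA transcripts.

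The 120-base stretch of each RNA with the most m6A-type motifs is shown because YTHDF2 reads m6A, which lies mostly in a GGAC context. The motifs searched were GGAC followed by A, C or T on the transcript strand, which cannot overlap each other, and they stand in capitals.
Malat1, bases 1099 to 1218, chr19:5801455-5801574: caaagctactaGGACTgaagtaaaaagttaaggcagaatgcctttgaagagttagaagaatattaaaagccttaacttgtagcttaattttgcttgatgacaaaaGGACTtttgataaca
Neat1, bases 316 to 435, chr19:5845044-5845163: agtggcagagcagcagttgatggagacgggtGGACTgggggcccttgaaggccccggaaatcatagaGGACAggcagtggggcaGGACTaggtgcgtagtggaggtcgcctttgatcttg
Kcnq1ot1, bases 60240 to 60359, chr7:143236191-143236310: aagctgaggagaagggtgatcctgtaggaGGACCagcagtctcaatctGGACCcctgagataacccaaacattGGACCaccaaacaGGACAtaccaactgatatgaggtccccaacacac
Malat1 held 15 of these motifs in its whole length, 9 of them GGACT. Neat1 held 72 and Kcnq1ot1 253. Per kilobase this was 2.15 motifs in Malat1, 3.47 in Neat1 and 2.72 in Kcnq1ot1, against medians of 3.21 over the 2430 lncRNA transcripts and 3.58 over 14494 protein-coding transcripts. The motif density of Malat1 exceeded that of 24.3% of lncRNAs, and those of Kcnq1ot1 and Neat1 exceeded 37.9% and 56.5%. Of 40596 windows of 120 bases tiled over the lncRNA transcripts, 6.04% held at least 2 motifs, 0.852% at least 3 and 0.106% at least 4. The stretches shown were picked as the richest of all positions in each RNA, so these shares of single windows do not say how rare they are. A motif match does not show a methylated base, and m6A was not measured in these libraries.

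All 3 RNAs were counted deeply in every library. Between 27852948 and 42382532 reads per library were assigned to genes. Malat1 had the highest mean count of all genes, Neat1 ranked 49 and Kcnq1ot1 757, which was rank 1, 4 and 10 among 9680 lncRNA genes. The smallest count of Kcnq1ot1 in a library was 5154.

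In the Ctrl Inputs 2.33%, 2.15% and 2.15% of counts were Malat1, and in the IR Inputs 3.09%, 2.93% and 3.02%. Its share in the Ctrl IPs was 6.10%, 6.27% and 6.35%, and in the IR IPs it was 6.12%, 6.03% and 6.16%. Every IP share of Malat1 lay above every Input share, while the shares in the Ctrl and IR IPs overlapped. Together the 3 RNAs made up 2.33% ± 0.105 (SD, n = 3) of Ctrl Input counts, 3.15% ± 0.077 of IR Input counts, 6.50% ± 0.125 in the Ctrl IP and 6.35% ± 0.0656 in the IR IP. Neat1 took between 0.102% and 0.104% of counts in the Ctrl Inputs, and between 0.118% and 0.121% in the IR Inputs. Its share was 0.218% to 0.224% in the Ctrl IPs and 0.219% to 0.223% in the IR IPs, so that here too the irradiated and unirradiated IPs overlapped. The share of Kcnq1ot1 was at most 0.0369% in any library.

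Normalized CPM (counts scaled to library size by TMM, a method that sets the trimmed mean of log ratios between libraries to zero) separated all 4 groups. Malat1 measured 22979, 21083 and 21172 CPM in the Ctrl Inputs and 32574, 30754 and 31730 in the IR Inputs. The Ctrl IPs held it at 63907, 66354 and 68436 CPM and the IR IPs at 55206, 55056 and 57404. The order of the groups was Ctrl Input, IR Input, IR IP and Ctrl IP, with no overlap between neighbours. Neat1 showed the same order, at 1013, 997 and 1020 CPM in the Ctrl Inputs and 1246, 1257 and 1269 in the IR Inputs. Its IPs measured 2342, 2340 and 2353 CPM in Ctrl and 1974, 2040 and 2052 in IR. Kcnq1ot1 differed from both in the Input, where its IR pools were the lower ones. It measured 175, 180 and 175 CPM in the Ctrl Inputs and 133, 142 and 145 in the IR Inputs. Its IPs measured 383, 387 and 398 CPM in Ctrl and 240, 278 and 287 in IR, again without overlap.

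**Figure D1:**
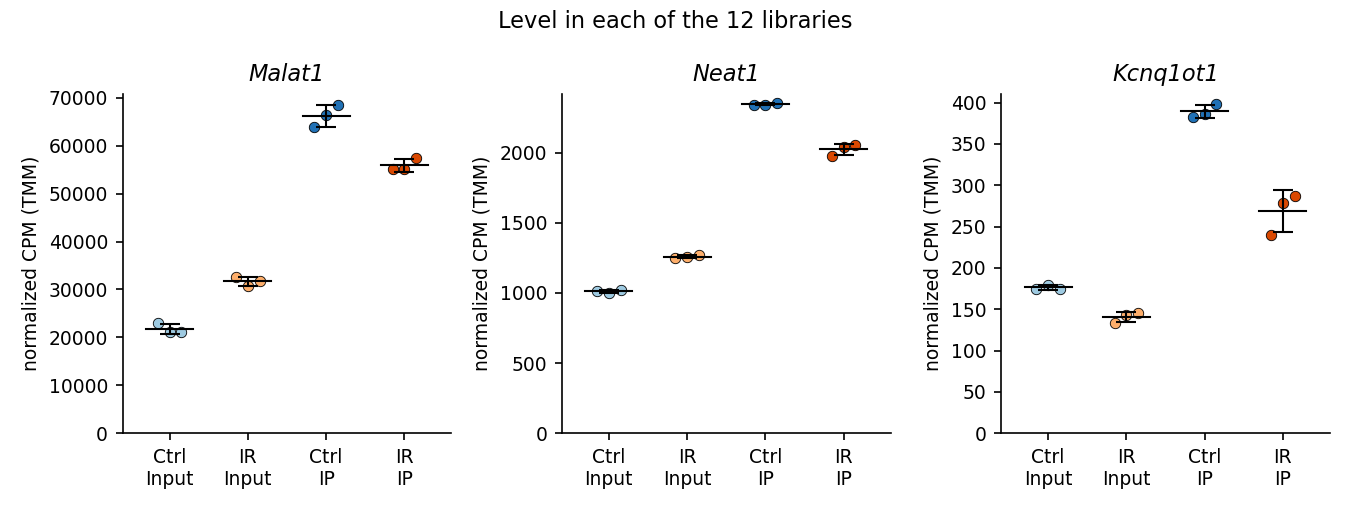
Normalized CPM (TMM scaling, linear axes from 0) of Malat1, Neat1 and Kcnq1ot1 in the 12 libraries; points are pools, horizontal bars are group means and whiskers are 1 SD (n = 3). In each panel the Ctrl IP pools are the highest, and the IR Input pools lie above the Ctrl Input pools for Malat1 and Neat1 and below them for Kcnq1ot1.

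Between genes, levels were compared per length, as CPM per kilobase of exon. In the Ctrl Input Malat1 averaged 3114 CPM per kilobase, Neat1 48.6 and Kcnq1ot1 1.90. In the Ctrl IP the corresponding values were 9485, 112.9 and 4.18. Neighbours in this order did not come near each other in any library, the smallest ratio per length being 61.7 for Malat1 to Neat1 and 24.8 for Neat1 to Kcnq1ot1. The value of Neat1 divides all its reads by the length of the long transcript.

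YTHDF2 IP was compared with Input to ask which RNAs were recovered with the protein. All 3 nuclear RNAs were more abundant in the IP than in the Input, in Ctrl and in IR. In the Ctrl pools the IP held 2.78, 3.15 and 3.23 times the Input level of Malat1, 2.31, 2.35 and 2.31 times that of Neat1 and 2.19, 2.15 and 2.28 times that of Kcnq1ot1. In the IR pools the corresponding folds were 1.69, 1.79 and 1.81 for Malat1, 1.58, 1.62 and 1.62 for Neat1 and 1.80, 1.95 and 1.98 for Kcnq1ot1. Malat1 had the highest of the folds in every Ctrl pool, and Kcnq1ot1 had it in every IR pool. IP and Input of a pool were matched by their replicate number.

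The fitted log2 difference of IP against Input in Ctrl was 1.68 (SE 0.033) for Malat1, 1.29 (SE 0.030) for Neat1 and 1.22 (SE 0.040) for Kcnq1ot1. In IR it was 0.87 (SE 0.024), 0.74 (SE 0.030) and 0.99 (SE 0.070). Nothing is read from a call on these genes, since IP over Input was used to choose them. Beside them, 34.1% of the 17416 genes tested in Ctrl and 32.1% of the 18650 tested in IR were called higher in the IP, and 34.6% and 30.4% lower (edgeR, adjusted p under 0.05). Likewise, all IP pools lay above all Input pools for 33.7% of genes in Ctrl and 33.4% in IR. The difference of Malat1 in Ctrl exceeded that of 87.9% of all genes tested, that of Neat1 81.9% and that of Kcnq1ot1 80.7%. In IR these shares were 69.9%, 66.9% and 72.3%, and in both conditions they moved with the filter on low counts. In Ctrl they were 64.9%, 60.3% and 59.3% with no filter, and 91.9%, 86.1% and 84.7% with 10 counts in every library. In IR they were 47.8%, 45.9% and 49.3% with no filter, below the middle of all genes. With 10 counts in every library the IR shares were 80.1%, 76.8% and 82.7%.

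The size of these folds moved with the scaling, and the IP libraries had more reads outside annotated genes than the Inputs. Such reads made up 27.0% ± 0.026 (SD, n = 3) of uniquely aligned reads in the Ctrl Input, 24.7% ± 0.065 in the IR Input, 42.3% ± 0.462 in the Ctrl IP and 51.4% ± 2.43 in the IR IP. Counted per uniquely aligned read, the IP held 2.25 ± 0.161 times the Input level of Malat1 in Ctrl and 1.32 ± 0.090 times in IR. For Neat1 this was 1.72 ± 0.021 and 1.20 ± 0.056 times, and for Kcnq1ot1 1.63 ± 0.041 and 1.43 ± 0.120 times. The fold of all 3 RNAs stayed above 1 in each pool on this scale. As a ratio of shares of the counts on genes, the folds of Malat1 were 2.83 ± 0.184 and 2.03 ± 0.040, and those of Neat1 2.15 ± 0.040 and 1.85 ± 0.021. Kcnq1ot1 measured 2.04 ± 0.045 in Ctrl and 2.19 ± 0.078 in IR on the scale of shares, the reverse order of that under TMM.

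**Figure D2:**
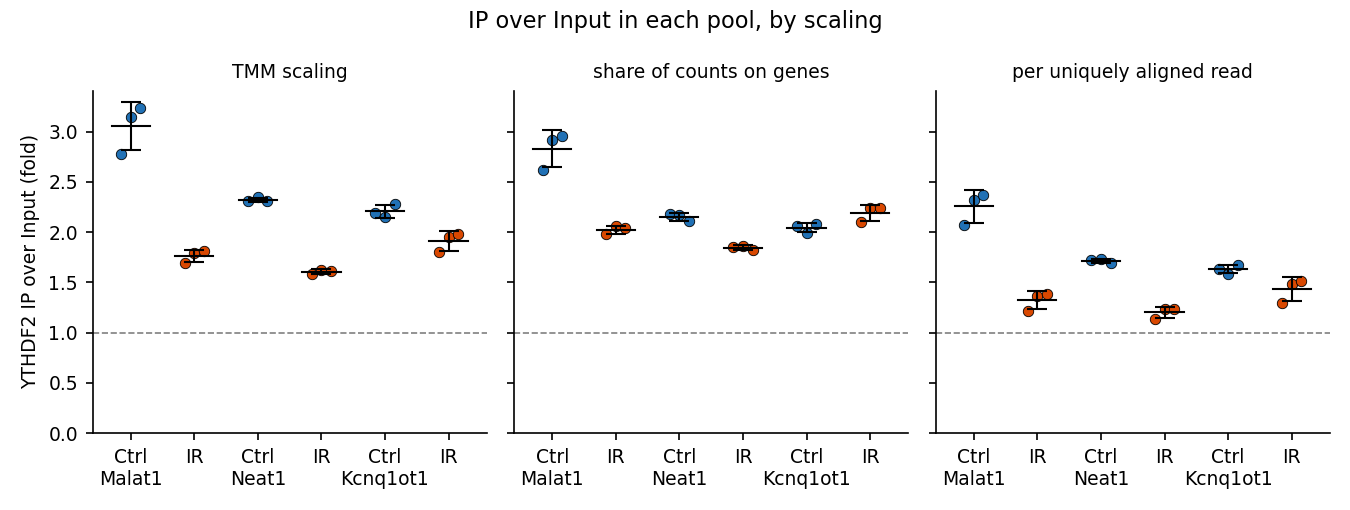
Fold of YTHDF2 IP over Input in each pool (points), with mean and SD (n = 3), under TMM scaling, as a ratio of shares of the counts on genes and per uniquely aligned read; the dashed line marks a fold of 1. All points lie above 1, and Kcnq1ot1 is the RNA whose Ctrl and IR pools change order between scalings.

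The interaction of fraction and condition asked whether irradiation changed the IP over the Input. Under TMM it was lower in IR for each of the 3 RNAs, most for Malat1. The fitted difference of the log2 IP over Input, IR minus Ctrl, was -0.79 (SE 0.041) for Malat1, -0.53 (SE 0.038) for Neat1 and -0.20 (SE 0.081) for Kcnq1ot1. Of 20720 genes tested, 13.9% were called lower and 6.28% higher by this interaction, and the median of all genes was -0.08. Malat1 lay above 12.7% of all genes tested, Neat1 above 22.1% and Kcnq1ot1 above 42.4%. The place of Malat1 ranged from 6.77% with 10 counts in every library to 21.5% with no filter. With the libraries scaled by the counts on genes alone the values were -0.48, -0.22 and 0.11, and by the counts on protein-coding genes of the nuclear genome -0.39, -0.13 and 0.19, so that Kcnq1ot1 changed direction. These scalings moved the median of all genes by 0.31 and 0.40, and with them 2862 and 3660 genes were called higher and 877 and 603 lower, against 1301 higher and 2881 lower under TMM.

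IR Input was compared with Ctrl Input to ask how the level of the RNAs differed after irradiation. Malat1 and Neat1 were higher after IR, and Kcnq1ot1 was lower. The fitted log2 difference was 0.46 (SE 0.026) for Malat1, 0.24 (SE 0.026) for Neat1 and -0.41 (SE 0.037) for Kcnq1ot1. All pools were separated in each case, as were those of 32.6% of the 16914 genes tested in the higher and 21.1% in the lower direction. Of all genes tested, 21.0% were called higher and 23.9% lower. Malat1 lay above 87.8% of genes, Neat1 above 73.6% and Kcnq1ot1 above 16.7%. The summed level of 10 myeloid markers also differed between these Inputs, at 6024 to 6497 CPM in Ctrl and 7842 to 8232 CPM in IR. The single markers did not move one way: 4 of the 10 were called higher in the IR Input and 3 lower, with a median log2 difference of 0.12. The higher ones were Itgam (0.79), which encodes CD11b, the neutrophil marker S100a8 (0.39), the macrophage marker C1qa (0.60) and the monocyte marker Ly6c2 (0.095). C1qa was rare, averaging 1.58 CPM in the Ctrl Input and 2.52 in the IR Input. Ptprc, Csf1r and Adgre1 were the lower ones, at -0.16, -0.12 and -0.24. The part of these markers in the levels of the 3 RNAs was not tested.

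In the IP, all 3 RNAs were lower in IR than in Ctrl under TMM. The fitted log2 difference was -0.24 (SE 0.020) for Malat1, -0.20 (SE 0.031) for Neat1 and -0.53 (SE 0.064) for Kcnq1ot1. The pools were separated, as were those of 17.9% of the 19255 genes tested in this direction, and 9.85% of genes were called lower. Without TMM, by counts on genes alone, the difference was -0.03 for Malat1, 0.0013 for Neat1 and -0.32 for Kcnq1ot1, so the value of Neat1 changed sign and that of Malat1 came near 0. Kcnq1ot1 was lower in IR on each scale tried, and it lay above 11.0% of all genes under TMM. The reads outside genes, whose share was highest in the IR IP, moved with this comparison, and their part in it was not tested.

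Ratios of counts between the RNAs within a library do not depend on the scaling of libraries. The Malat1 to Neat1 ratio was 21.5 ± 1.02 (SD, n = 3) in the Ctrl Input, 25.2 ± 0.858 in the IR Input, 28.2 ± 0.905 in the Ctrl IP and 27.6 ± 0.569 in the IR IP. It was higher in each IP than in its Input, and the Ctrl and IR IPs overlapped. The Neat1 to Kcnq1ot1 ratio went from 5.72 ± 0.158 in the Ctrl Input to 8.98 ± 0.328 in the IR Input. In the IPs it was 6.03 ± 0.101 in Ctrl and 7.57 ± 0.585 in IR. The ratio was thus higher in the IP than in the Input in Ctrl and lower in IR, with no overlap of the pools between IP and Input in either condition. The Malat1 to Kcnq1ot1 ratio was 123.3 ± 7.42 in the Ctrl Input, 226 ± 15.8 in the IR Input, 170.1 ± 2.91 in the Ctrl IP and 209 ± 18.2 in the IR IP. Its IP and Input pools overlapped in IR. The within-library ratios depend on the reads of 2 genes only, and their errors are the spread between pools.

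**Figure D3:**
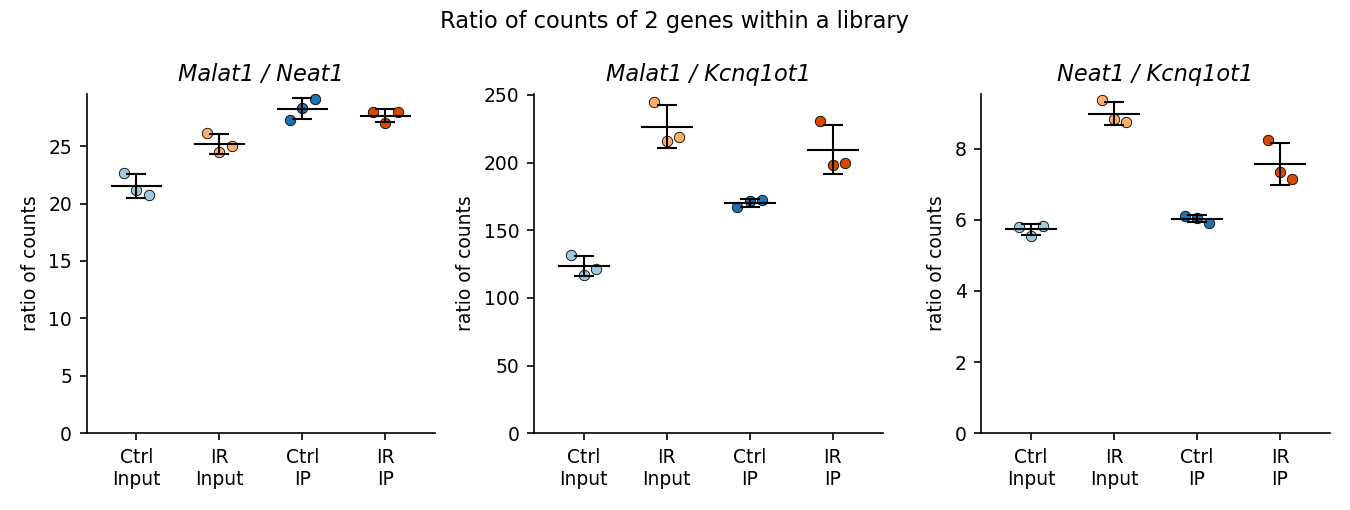
Ratio of the counts of Malat1 to Neat1, Malat1 to Kcnq1ot1 and Neat1 to Kcnq1ot1 within each library, with means and SD (n = 3) and axes from 0. The ratios to Kcnq1ot1 are highest in the IR Input, at 226 and 8.98 on average, and that of Malat1 to Neat1 is highest in the Ctrl IP, at 28.2.

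Among lncRNAs as a class, IP and Input were compared on 2 filters, since many lncRNAs are rare in the Input and passed the usual filter only through the IP. Without the 3 RNAs, 42.1% of 1643 lncRNA genes tested in Ctrl were called higher in the IP and 7.06% lower, and in IR 41.5% of 1892 were higher and 5.02% lower. For protein-coding genes of the nuclear genome 32.9% were higher and 40.8% lower in Ctrl, and 29.2% and 37.0% in IR. The median log2 difference of IP against Input was 0.76 in Ctrl and 1.05 in IR for lncRNAs, against -0.10 and -0.09 for protein-coding genes. Malat1 lay above 75.1% of lncRNA genes in Ctrl and 44.4% in IR, Neat1 above 64.6% and 40.2%, and Kcnq1ot1 above 62.0% and 48.3%. On the lncRNA genes with 10 counts in every library, 936 in Ctrl and 919 in IR, the medians were 0.77 and 0.91. Malat1 then lay above 80.3% of lncRNAs in Ctrl and 53.8% in IR, Neat1 above 68.5% and 47.9%, and Kcnq1ot1 above 65.3% and 59.2%. The place of the 3 RNAs around the lncRNA median in IR thus depended on the filter. Long RNAs with a lone exon are the structural class of the 3. Without them, 21 of 30 lncRNA genes with 1 exon in the longest transcript and at least 5 kb of exon were higher in the Ctrl IP and 1 was lower, with a median of 1.14. In IR 24 of 34 were higher and none of the 34 was called lower, with a median of 1.32. For 1-exon lncRNAs under 5 kb the numbers were 143 of 352 higher in Ctrl and 130 of 355 in IR, with medians of 0.67 and 0.84. With 10 counts in every library, 20 of 26 such genes of at least 5 kb were higher in Ctrl and 21 of 26 in IR, with a median of 1.17 in each. Taken whatever their exon number, 88 of 145 lncRNA genes with at least 5 kb of exon were higher in Ctrl and 118 of 178 in IR. Their medians were 1.07 and 1.48 on this filter, which also admits genes through the IP alone. With 10 counts in every library 68 of 104 were higher in Ctrl and 75 of 111 in IR. The medians were then 0.96 and 1.14, below those of the lone-exon genes. Among lncRNAs of any length, 42.9% with 1 exon and 41.8% with more were higher in Ctrl, and 39.6% and 42.0% in IR. With 10 counts in every library these shares were 56.6% and 53.1% in Ctrl, and 54.0% and 47.2% in IR. A higher level in the IP was thus not particular to a lone exon.

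**Figure D4:**
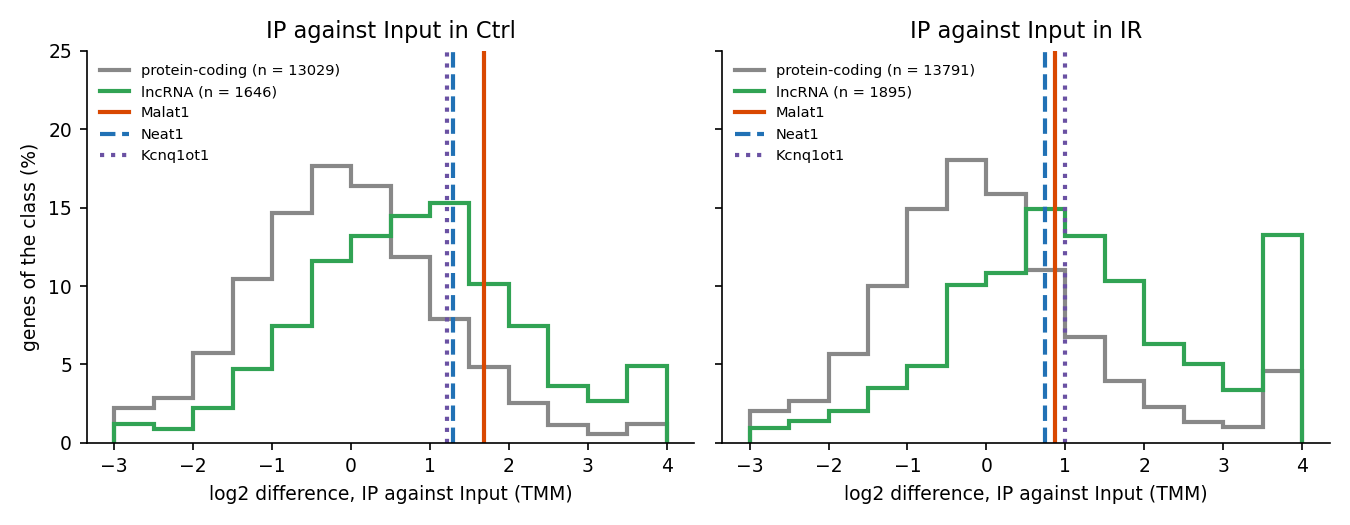
Share of the tested genes of a class (y axis, percent) by log2 difference of IP against Input in bins of 0.5 (x axis, the outermost bins holding all values beyond them), for lncRNA and protein-coding genes in Ctrl and in IR; vertical lines mark Malat1, Neat1 and Kcnq1ot1. The lncRNA curve lies to the right of the protein-coding curve, and in IR 13.2% of lncRNA genes fall in the top bin against 4.92% in Ctrl, on the filter that also admits genes through the IP alone.

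Other nuclear lncRNAs gave the closest comparison by place in the cell. Of 23 listed, 16 were tested in Ctrl, where 8 were higher in the IP, 3 were lower and 5 did not pass, against 34.1% and 34.6% of all genes. In IR 12 of 18 tested were higher and 2 were lower, but 6 of the 12 (Miat, Rmst, Tsix, Meg3, Nespas and Airn) averaged from 0 to 0.374 CPM in the IR Input, and genes so rare in the Input could pass the filter only through the IP, so nothing is read from these counts. With 10 counts in every library 7 of 14 were higher and 3 lower in Ctrl, with a median of 0.84 beside -0.0027 for all genes. In IR 6 of 11 were then higher and 1 was lower, with a median of 0.47 beside 0.024. Tug1, a lncRNA that takes part in gene regulation in the nucleus, rose from 79.2 ± 2.07 CPM in the Ctrl Input to 434 ± 23.0 in the Ctrl IP, a log2 difference of 2.53 (edgeR adjusted p = 1.15e-17). In IR its difference was 1.95 (edgeR adjusted p = 1.57e-09). Xist, which coats and silences the inactive X chromosome in female cells, was higher in the IP by 1.42 in Ctrl and 1.65 in IR (edgeR adjusted p = 6.95e-16 and 1.45e-10). It fell in the IR Input by 0.64 on the log2 scale (edgeR adjusted p = 6.32e-15), and how many female mice entered each pool was not given. Dleu2, host of the miR-15a and miR-16-1 cluster, was higher in the IP by 0.94 and 0.49 (edgeR adjusted p = 1.15e-11 and 8.97e-06). Mir142hg, host of the blood cell microRNA miR-142, was higher by 1.13 and 0.29 (edgeR adjusted p = 8.89e-11 and 0.0270). Malat1, Neat1 and Kcnq1ot1 in Ctrl lay between Dleu2 and Tug1 in this measure.

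Most of the cytosolic lncRNAs tested lay the other way. Of 10 tested from a list of 11, 1 was higher in the IP and 6 were lower in Ctrl. In IR 1 was higher and 8 were lower, and the medians were -0.23 and -0.97. Of all genes 34.1% were higher and 34.6% lower in Ctrl, and 32.1% and 30.4% in IR. Those lower in Ctrl were Gas5, Snhg1, Snhg5, Snhg6, Snhg8 and Epb41l4aos, and Zfas1 and Snhg12 joined them in IR. Gas5, Zfas1 and the Snhg genes are snoRNA hosts, and the part of this trait beside location was not tested. The one that rose was 1700020I14Rik (Cyrano), which drives the decay of miR-7, at 0.73 in Ctrl and 0.56 in IR (edgeR adjusted p = 4.37e-10 and 3.64e-06). The snoRNA host Gas5 fell by 0.17 in Ctrl and by 1.24 in IR (edgeR adjusted p = 0.0189 and 1.29e-07). The snoRNA host Zfas1 measured -0.17 in Ctrl, where it did not pass, and fell by 0.65 in IR (edgeR adjusted p = 0.00029). 2900097C17Rik (Norad), which binds Pumilio proteins in the cytosol, did not pass in either condition, at -0.08 and 0.07. By the interaction, 6 of the 10 were lower in IR and none of the 10 was higher, beside 13.9% and 6.28% of all genes. With 10 counts in every library 3 of the 10 were lower and none was higher, beside 16.0% and 11.9% of all genes. These calls were made under TMM, and over all genes their number moved with the scaling.

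Among mRNAs of proteins that reside with Neat1 or Malat1, more were lower than higher in the IP, with exceptions that included Smarca4 and Son. Of 22 paraspeckle protein genes, 7 were higher and 13 lower in the Ctrl IP, and 6 were higher and 11 lower in the IR IP, with medians of -0.19 and -0.21. Of all genes 34.1% were higher and 34.6% lower in Ctrl and 32.1% and 30.4% in IR. Of protein-coding genes of the nuclear genome 32.9% were higher and 40.8% lower in Ctrl, and 29.2% and 37.0% in IR. The same shares stand behind the lists of protein-coding genes that follow. Smarca4, an ATPase of the SWI/SNF complex, went from 538 ± 10.8 CPM in the Ctrl Input to 1539 ± 47.2 in the Ctrl IP, a log2 difference of 1.59 (edgeR adjusted p = 8.84e-17), and its difference in IR was 0.91 (edgeR adjusted p = 3.12e-09). Hnrnpa1, an RNA-binding protein of the paraspeckle, fell by 1.60 in Ctrl and by 1.48 in IR (edgeR adjusted p = 6.09e-14 and 5.31e-09). Sfpq, a core paraspeckle protein that binds Neat1, fell by 0.18 in the Ctrl IP (edgeR adjusted p = 0.00273) and measured 0.02 in IR. Ewsr1, an RNA-binding protein of the FET family, was higher by 0.27 in Ctrl and fell by 0.25 in IR (edgeR adjusted p = 5.08e-05 and 0.000844), and per uniquely aligned read its Ctrl value was -0.25. In the Input, 3 of the 22 genes were higher and 10 lower after IR, beside 21.0% and 23.9% of all genes, among them Sfpq, which fell by 0.48 (edgeR adjusted p = 3.93e-11), while Neat1 itself was higher.

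Among 19 genes of Malat1 partners and nuclear speckle proteins, 5 were higher and 14 lower in the Ctrl IP, and 5 were higher and 13 lower in IR, with medians of -0.67 and -0.82. Son, a speckle scaffold, reached 7070 ± 12.1 CPM in the Ctrl IP from 1257 ± 11.8 in the Ctrl Input, a log2 difference of 2.57 (edgeR adjusted p = 2.80e-20), larger than that of Malat1. Its difference in IR was 1.76 (edgeR adjusted p = 5.67e-12), and the interaction was -0.78 (edgeR adjusted p = 1.18e-12), beside -0.79 for Malat1. Srrm2, the other speckle scaffold, was higher in the IP by 1.60 and 1.24 (edgeR adjusted p = 4.74e-17 and 2.85e-10). Srrm1, a splicing coactivator, was higher by 0.82 and 0.29 (edgeR adjusted p = 3.16e-12 and 0.000149), and per uniquely aligned read its IR value was -0.18. Hnrnpa2b1, an m6A-associated splicing regulator, fell by 1.62 and 1.60 (edgeR adjusted p = 1.18e-16 and 2.88e-09). After IR, 3 of the 19 were higher and 11 lower in the Input, beside 21.0% and 23.9% of all genes. In the IP none of the 19 was higher and 9 were lower, beside 6.12% and 9.85%.

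Genes near the 3 RNAs on the chromosome were read for both loci. Of 16 neighbours of Malat1 and Neat1 on chromosome 19, 14 were tested in Ctrl, with 4 higher and 8 lower in the IP, and 15 in IR, with 4 higher and 7 lower. In the Input 4 of 14 were higher and 4 lower after IR, beside 21.0% and 23.9% of all genes. Ehbp1l1, an endocytic recycling factor, was higher in the IP by 0.82 and 0.74 (edgeR adjusted p = 9.22e-13 and 2.37e-07), and Map3k11, a kinase of the JNK pathway, by 0.96 and 0.71 (edgeR adjusted p = 4.13e-12 and 1.05e-06). Capn1, a calcium-dependent protease, fell in the IP by 0.37 and 0.68 (edgeR adjusted p = 3.84e-06 and 3.82e-05). Sipa1, a GTPase activator for Rap1, measured 0.07 in Ctrl without passing and fell by 0.22 in IR (edgeR adjusted p = 0.0344).

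For the Kcnq1 imprinted domain 11 of 15 genes were tested in Ctrl, with 4 higher and 3 lower in the IP, and 13 in IR, with 5 higher and 4 lower. Kcnq1 itself was among the 5, with 0 to 4 counts in the IR Inputs and 12 to 45 in the IR IPs. It could pass the filter only through the IP, so nothing is read from it. With 10 counts in every library 4 of 10 were higher and 3 lower in Ctrl. In IR 4 of 11 were then higher and 3 lower. In the Input, where Kcnq1ot1 was lower after IR, 5 of 12 genes tested were higher and 2 were lower, beside 21.0% and 23.9% of all genes. Cars, the cysteinyl-tRNA synthetase, was higher in the IR Input by 0.30 (edgeR adjusted p = 2.12e-06). Tspan32, a tetraspanin of blood cells, and Nap1l4, a histone chaperone, fell by 0.21 and 0.27 (edgeR adjusted p = 1.76e-05 and 1.70e-05). Tssc4, a factor of spliceosome assembly, measured -0.05 and did not pass. In the IP, Tssc4 was higher by 1.66 in Ctrl (edgeR adjusted p = 1.62e-11), Cars by 1.12 (edgeR adjusted p = 1.29e-12) and Tspan32 by 0.80 (edgeR adjusted p = 1.62e-11), while Nap1l4 fell by 0.72 (edgeR adjusted p = 6.05e-08). In IR these values were 1.19, 0.59 and 0.24, and Nap1l4 fell by 0.69 (edgeR adjusted p = 3.67e-06, 6.39e-06, 0.00408 and 9.92e-05).

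Of 11 genes for chromatin partners of Kcnq1ot1, 5 were higher and 5 lower in the Ctrl IP, and 4 were higher and 6 lower in the IR IP. Ehmt2 (G9a), a histone H3 lysine methyltransferase, was higher by 0.86 and 0.29 (edgeR adjusted p = 1.34e-12 and 0.000638). Hnrnpu, which tethers RNA to chromatin, fell by 0.35 and 0.24 (edgeR adjusted p = 2.08e-07 and 0.000544). Ctcf, an insulator protein, was higher by 0.15 in Ctrl and fell by 0.41 in IR (edgeR adjusted p = 0.0269 and 9.26e-05), and per uniquely aligned read its Ctrl value was -0.36. Smc1a, a cohesin subunit, did not pass in either, at 0.12 and 0.03. In the Input 2 of the 11 were higher and 5 lower after IR, beside 21.0% and 23.9% of all genes, among them Hnrnpu, which fell by 0.40 (edgeR adjusted p = 5.02e-11).

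**Figure D5:**
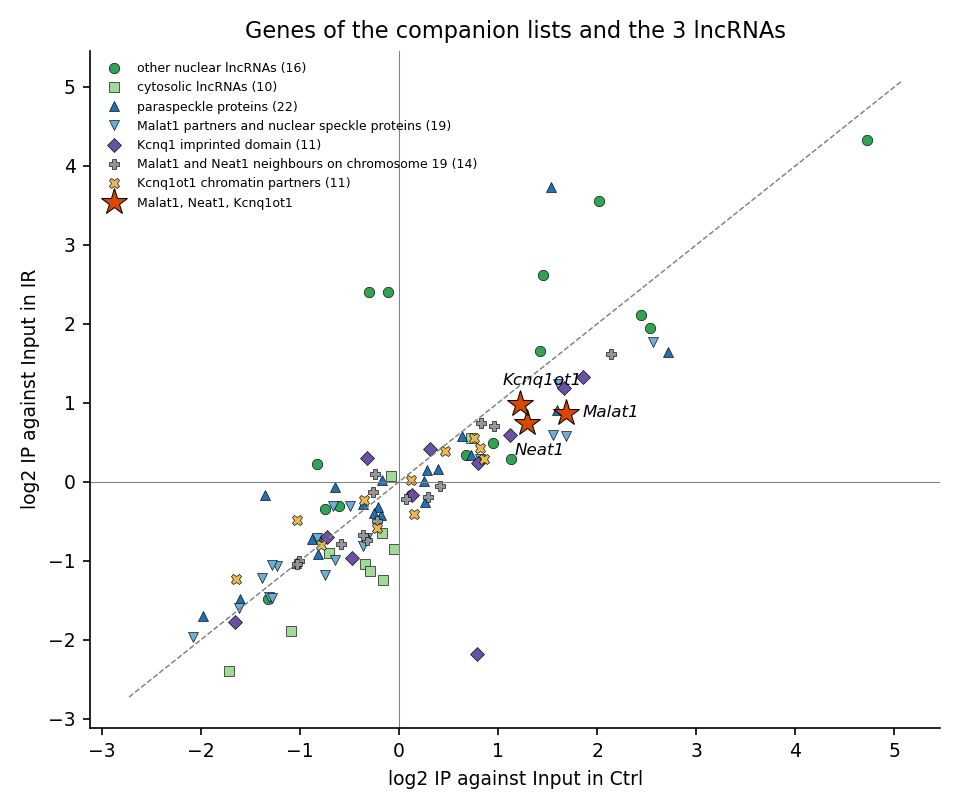
Log2 difference of IP against Input in Ctrl (x axis) and in IR (y axis) for each companion gene tested in both, with a marker shape per list and stars for Malat1, Neat1 and Kcnq1ot1; the dashed line marks equal values. Cytosolic lncRNAs mostly lie below 0, the 3 stars lie below the line of equal values, and the point furthest to the upper right is Meg3, which averaged 0.10 CPM in the Ctrl Input and 0.27 in the IR Input.

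Annotated genes that overlap the exons of the 3 RNAs took few reads. On the opposite strand, Gm37376 (453 bases, all inside a Malat1 exon) received 7319 counts over the 12 libraries, so reads there were assigned by strand. Its level followed the order of Malat1, at 7.78 ± 0.895 CPM in the Ctrl Input, 14.7 ± 0.805 in the IR Input, 28.9 ± 2.39 in the Ctrl IP and 22.2 ± 4.89 in the IR IP. Whether it is a transcript of its own was not tested. Kcnq1 shares 121 exonic bases with Kcnq1ot1 and had 91 counts over all libraries, at most 1.36 CPM in any of them. The potassium channel gene was thus near the limit of detection while its antisense RNA had at least 5154 counts in each library. The 4 same-strand small RNA entries inside Malat1 and Neat1 had 0 counts, and reads shared with the host gene are left out of a count as ambiguous.

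Across the 12 libraries the log2 CPM of Malat1 and Neat1 were nearly parallel, with a Pearson r of 0.995. Of 11725 other genes averaging 100 counts or more, 13 were more like Malat1 than Neat1 was, and 48 were more like Neat1 than Malat1 was. Kcnq1ot1 was less alike, with r of 0.843 to Malat1 and 0.884 to Neat1. The genes most like Malat1 were Fam32a (r = 0.998), Gm26740 (0.997) and Baz2a (0.997). Those most like Neat1 were Ubn2, the pseudogene Hmgb1-ps5 and Kdm5a (each 0.998). Those most like Kcnq1ot1 were Bace1 (0.996), Frmd4a (0.994) and Taf5l (0.993). These coefficients describe 4 groups of 3 libraries, which share the difference between IP and Input, and carry no test.

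As sums, markers of other cells were low beside the myeloid markers. The myeloid sum was mostly Lyz2, S100a8 and Itgam, which averaged 2469, 2103 and 944 CPM in the Ctrl Input. Arg1, C1qa, Cd14 and Adgre1 averaged 0.27, 1.58, 31.3 and 31.3 CPM there. These 4 lay below the epithelial marker Cdh1, which averaged 119 CPM and made up most of the epithelial sum. The 6 tumor epithelial markers summed to 119 to 127 CPM in the Ctrl Input, 90.9 to 96.9 in the IR Input, 71.1 to 78.4 in the Ctrl IP and 45.2 to 62.0 in the IR IP, with Krt19 at 0 in all 4 groups and a further marker, Cldn4 or Krt8, at 0 in each. The 6 T cell markers summed to at most 2.84 CPM in any library, the 4 NK cell markers to at most 5.68 and the 4 erythroid markers to at most 0.596. The 4 B cell markers reached 18.6 to 20.0 CPM in the Ctrl Input and 25.2 to 27.8 in the IR Input, the 4 endothelial markers 25.3 to 26.8 and 21.9 to 24.0, and the 4 fibroblast markers 6.03 to 6.74 and 7.82 to 12.4. None of the 10 myeloid markers was at 0 in all libraries of a group, though the lowest value of Arg1 in the IR IP was 0. They summed to 1555 to 1615 CPM in the Ctrl IP and 1730 to 1854 in the IR IP. Thus the epithelial sum was lower in IR, and the B cell and fibroblast sums were higher in the IR Input. Of the 4 B cell markers 1 was called higher there and 2 lower. The part of these markers in the levels of the 3 RNAs, which any nucleated cell can express, was not tested.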

How the data were processed

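YTHDF2 RIP-seq and Input libraries of tumor-infiltrating CD11b+ cells were compared, 12 in all. The authors trimmed reads with Trimmomatic 0.39, aligned them to mm10 with HISAT and counted reads per GENCODE M19 gene with HTSeq. The deposited values are raw counts per gene. The strand option of HTSeq and any removal of duplicate reads were not given in the sources used here. The antibody is named differently in the labels and in the methods. Of 54446 identifiers 99.9% were matched to GENCODE M21, 97.8% of them with the same version. The 5 HTSeq summary lines were kept out of library sizes and tests. They held reads on no gene (24.6% to 54.1% of uniquely aligned reads) and ambiguous reads (0.971% to 2.22%). No other columns of per-sample values were present.

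Counts were normalized by TMM and tested with edgeR 4.0.16 (R 4.3.3, quasi-likelihood F test, no covariates, Benjamini-Hochberg adjustment over all genes tested, threshold 0.05), on genes that reached 10 counts in 3 or more libraries of the fit. Only the groups compared entered a fit, and all 12 libraries entered the interaction. DESeq2 1.42.0, which the authors used, was an alternative, as were other scalings and filters, the replicate block and leaving out each replicate number. Log2 CPM for likeness used a prior count of 2. Where a fold is given per pool, IP and Input with the same number were matched, since the methods take the Input from the same lysate. Their deviations from the group means correlated at -0.02 to 0.04. Replicate libraries differed by 3.59 to 21.5 times the variance of counting noise, so none was counted as a duplicate. Sequences and motif counts were read from the GENCODE M21 transcripts with Python 3.11.15.

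The named genes were the 3 members, the 4 tested genes with the highest mean count in each companion list, the 3 genes with the highest Pearson r to each member among genes averaging 100 counts or more, and genes whose exons overlap a member. The 3 members and all lists were chosen with earlier results of these data known. Reads carry no molecular identifiers, so the precision of counts covers counting error only.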

Additional observations from a re-analysis of the deposited data

Results flagged for a closer look

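The IP over Input of 20 of the 28 companion genes named above differed between Ctrl and IR by the interaction term (edgeR, adjusted p under 0.05). The values are log2 differences, IR minus Ctrl, under TMM. Among lncRNAs Xist was higher by 0.25. Dleu2 was lower at -0.43, Tug1 at -0.55, Mir142hg at -0.81, Gas5 at -1.05 and Zfas1 at -0.46. Among genes of paraspeckle proteins Sfpq was higher by 0.22, while Smarca4 was lower at -0.66 and Ewsr1 at -0.50. Among genes of speckle proteins Son was at -0.78, Srrm2 at -0.33 and Srrm1 at -0.51. In the Kcnq1 domain Tspan32 was at -0.54, Cars at -0.51 and Tssc4 at -0.46. Among neighbours of Malat1 and Neat1, Sipa1 was at -0.27, Map3k11 at -0.23 and Capn1 at -0.29. Among chromatin partners of Kcnq1ot1, Ehmt2 was at -0.55 and Ctcf at -0.54. In all, 18 of the 20 were lower in IR under TMM, beside 13.9% of all genes called lower and 6.28% called higher. The named genes had the highest mean counts among the tested genes of their lists, so these shares are not a matched background. Over all genes the balance of calls moved with the scaling. By counts on genes alone 2862 genes were called higher and 877 lower, and by nuclear protein-coding counts 3660 and 603. A loss of IP over Input common to the companion genes is therefore not read from the 18. The values for Srrm2, Sipa1, Map3k11 and Capn1 changed sign under another scaling, as given with the dependence on processing.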

How the results depend on the processing

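Under the replicate block, which matched pools by number, no value of Malat1, Neat1 or Kcnq1ot1 and no count of called genes moved beyond the spread between pools or by over 1.5 times (1.68 for Malat1 IP against Input in Ctrl). Scaled by counts on genes alone, the log2 IP against Input of Malat1, Neat1 and Kcnq1ot1 was 1.50, 1.11 and 1.03 in Ctrl and 1.02, 0.89 and 1.14 in IR, its change with IR was -0.48, -0.22 and, reversed, 0.11, and the IR IP against the Ctrl IP was -0.029, 0.0013 (Neat1, reversed) and -0.32. In that setting 2862 genes were called higher and 877 lower for the change and 2665 and 828 for the IP. Scaled by nuclear protein-coding counts the values were 1.47, 1.08 and 1.003 in Ctrl, 1.08, 0.95 and 1.20 in IR, -0.39, -0.13 and, reversed, 0.19 for the change, 0.37, 0.15 and -0.50 for the Input, and -0.017, 0.014 (Neat1, reversed) and -0.31 for the IP, with 3660 genes higher and 603 lower for the change and 2837 and 780 for the IP. Scaled by uniquely aligned reads they were 1.17, 0.78 and 0.70 in Ctrl and 0.40, 0.27 and 0.52 in IR, Neat1 measured 0.26 in the Input and -0.25 in the IP, and 3718 genes in Ctrl and 3991 in IR were called higher. DESeq2 and its size factors gave Neat1 1.32, 0.79 and, for the change, -0.47. Without a filter Neat1 and Kcnq1ot1 measured 1.18 and 1.10 in Ctrl, the 3 RNAs 0.73, 0.60 and 0.85 in IR, and Neat1 -0.55 for the change and -0.24 in the IP. With 10 counts in every library Neat1 measured 1.32 in Ctrl, the 3 RNAs 0.99, 0.86 and 1.11 in IR, the change of Neat1 and Kcnq1ot1 was -0.42 and -0.0950, and Neat1 measured -0.15 in the IP. With all 12 libraries in 1 fit Neat1 and Kcnq1ot1 measured 1.22 and 1.14 in Ctrl, Malat1 and Neat1 0.82 and 0.69 in IR, Neat1 and Kcnq1ot1 0.32 and -0.33 in the Input, and 1500 genes were called lower in the Input and 2125 higher and 2952 lower in the IP. The cause of these moves was not tested.

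Leaving out each replicate number in turn kept the direction of all 15 values of the 3 RNAs. For Malat1, Neat1 and Kcnq1ot1 in that order the ranges were 1.66 to 1.77, 1.29 to 1.32 and 1.21 to 1.24 in Ctrl, 0.93 to 0.97, 0.80 to 0.82 and 1.04 to 1.10 in IR, -0.80 to -0.74, -0.51 to -0.49 and -0.21 to -0.14 for the change, 0.44 to 0.49, 0.23 to 0.25 and -0.45 to -0.38 in the Input, and -0.23 to -0.20, -0.20 to -0.17 and -0.55 to -0.44 in the IP. Genes called higher numbered 4842 to 4984 in Ctrl, 3979 to 4153 in IR, 838 to 1012 for the change, 2658 to 3132 in the Input and 564 to 748 in the IP, and genes called lower 5204 to 5355, 4514 to 4750, 1786 to 2046, 3137 to 3588 and 1097 to 1348, from fewer libraries.

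Among companion genes, these changed direction. Per uniquely aligned read, the Ctrl value was -0.25 for Ewsr1, -0.44 for Sipa1, -0.39 for Smc1a and -0.36 for Ctcf, and the IR value -0.17 for Mir142hg, -0.41 for 2900097C17Rik, -0.46 for Sfpq, -0.18 for Srrm1, -0.24 for Tspan32, -0.18 for Ehmt2 and -0.45 for Smc1a. By counts on genes, Ctrl was -0.11 for Sipa1 and -0.032 for Ctcf, the change 0.25 for Ehbp1l1, 0.044 for Sipa1, 0.080 for Map3k11 and 0.023 for Capn1, and the IP 0.032 for Hnrnpu. By coding counts, Ctrl was -0.14 for Sipa1 and -0.061 for Ctcf, the change 0.25 for 1700020I14Rik, 0.064 for Srrm2, 0.34 for Ehbp1l1, 0.13 for Sipa1, 0.17 for Map3k11, 0.11 for Capn1 and 0.33 for Smc1a, and the IP 0.17 for 1700020I14Rik and 0.045 for Hnrnpu.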
